A study of Mus musculus with 14 samples.

Results

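The genes of voltage-gated ion channels and of potassium channels were followed through the DNA methylation of mammary adipose tissue in lean, obese and formerly obese mice. The genes were chosen by name, with earlier results of these data known. The rule took every gene of the deposited table whose symbol starts with Kcn, Cacn, Scn or Hcn followed by a subunit number. It set 2 genes aside. The rule found 91 genes with 857 sites, of 12627 genes and 75761 sites in all. A total of 721 of these sites, in 90 genes, varied enough between mice to be tested, of 65610 sites tested across the genome. Kcnj16, an inward rectifier gene, was the one channel gene with no tested site.

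The samples came from 14 female C57BL/6NCrl mice, which were 8 weeks old on arrival. The 3 CON-LFD mice ate a diet with 10% fat throughout, and all other mice first became obese on a diet with 60% fat over 15 weeks. The 4 DIO-HFD mice stayed on that diet, the 3 DIO-LFD mice changed to the 10% diet, and the 4 DIO-VSG mice underwent vertical sleeve gastrectomy, which removes most of the stomach, and changed to the 10% diet. The CON-LFD, DIO-HFD and DIO-LFD mice had sham surgery. All 14 mice also carried a tumor of E0771 mammary cancer cells, injected into one mammary fat pad 7 weeks after surgery, and the unaffected fat pad of the other side was taken 4 weeks later. The labels name E0771 cells beside these samples, although the tissue is the contralateral pad. The pad was used whole, so a change in the cells present and a change within cells cannot be told apart.

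Voltage-gated channels open when the voltage across the membrane changes and let potassium, calcium or sodium ions pass. A pore-forming alpha subunit carries the gate, and auxiliary subunits set where the channel sits and how it opens. Other potassium channels answer to calcium, sodium or the metabolic state of the cell, among them the inward rectifiers and the 2-pore channels that hold the resting potential. Many of these genes are best known from nerve, heart and muscle, and some also act in adipocytes, vascular smooth muscle and lymphocytes. DNA methylation in mammals sits mainly on the cytosine of CpG, and CpG islands at active or poised promoters usually lack it.

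Reduced-representation bisulfite sequencing (RRBS) gave, for each cytosine it covered, the share of reads that were methylated, called the level here and given in percent. It covers the ends of short fragments cut by MspI, an enzyme that recognizes CCGG. Read counts did not accompany the levels, so their depth was unknown and no counting interval could be given. Differences were tested with limma on M, the log2 ratio of methylated to unmethylated share with a small offset, and a p-value was adjusted over all sites or all genes tested. With 3 or 4 mice per group, a p-value sets a group difference against the spread between mice. That spread was pooled over the 4 groups, whose own spreads were unequal.

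All 857 channel sites were CpGs. The table marked 31.4% of them as promoter, 35.6% as exon and 49.4% as intron, against 25.8%, 29.7% and 41.3% over all genes. CpG islands held 29.9% of channel sites and 23.8% of all sites. In the GENCODE annotation of the mouse genome (GRCm38, the same sequence as mm10), 354 channel sites were in introns, 227 in coding sequence, 63 in a 5′ UTR and 7 in a 3′ UTR. The other sites included 190 outside the gene they were assigned to, of which 40 were inside another gene, and 32 sites lay more than 100 kb from the transcript start.

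Channel promoters within CpG islands were less methylated than channel sites that were neither promoter nor island, by an amount that depended on which CpG was read. The median level over the 14 mice was 74.3% at the 480 sites of the latter kind, some of which lie outside genes, and 44.1% at the 148 promoter sites in an island. Among those 148 sites, the 77 within CCGG had a median of 50.6% and the 71 outside it had 13.8%. The same split over all genes was 49.8% against 23.5%. The cut site of the enzyme thus coincided with a level near the middle of the scale in channel and other genes alike, and its part in the levels was not tested.

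Channel genes differed widely in the methylation of their island promoters. A total of 20 genes had at least 3 such sites. The lowest mean was that of Kcnt1, the sodium-activated channel Slack, with 12% and a range of 6.91 to 15.1% by mouse. Kcnk2, the mechanically gated 2-pore channel TREK-1, followed with 16.2%, and Cacna1c, the pore of the L-type calcium channel of heart and smooth muscle, with 17.3%. The highest were Kcng1, a silent subunit that modifies other potassium channels, with 73.5% and 55.1 to 84.9% by mouse, Kcna1 with 55.4% and Cacna2d3 with 53.1%. All sites of Kcna1 and Cacna2d3 in that count were within CCGG, whereas those of Kcng1 were all outside it. The genes were thus not all read at the same kind of site. The Kcng1 sites are 508 to 576 bp from a transcript start inside the gene, at 168268756 to 168268824 of chromosome 2. At its outer 5′ end, 168281650 to 168281833, 6 promoter sites were outside islands. Group means over those of them outside CCGG were 29.7 to 37.4%.

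**Figure D1:**
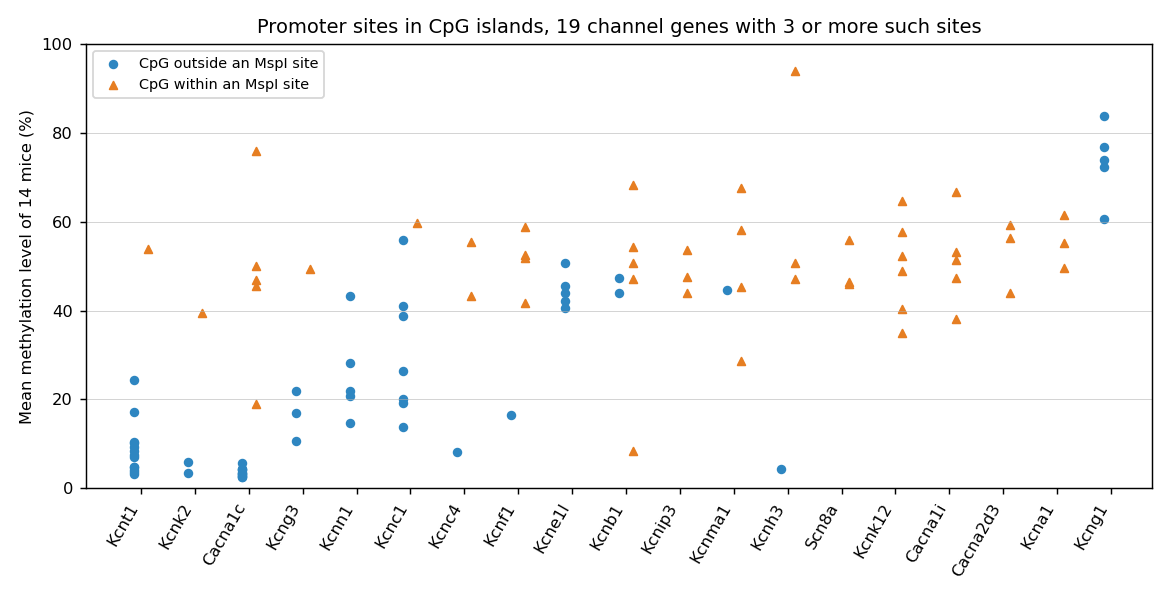
Mean methylation level over 14 mice, in percent on the vertical axis, at each promoter site within a CpG island, for 19 channel genes with 3 or more such sites in order of their mean. Triangles are sites within CCGG and circles are the other sites. Circles lie mostly under the triangles of the same gene, and Kcng1, with a mean of 73.5%, has only circles.

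The stretch of the Cacna1c promoter island that was read shows the contrast within 1 gene. It holds 12 measured CpGs, of which the 10 outside CCGG had a mean of 0 to 3.9% in 13 of the 14 mice. DIO-HFD replicate 3 stood at 27.6%. The 5 island promoter sites of this gene within CCGG had higher means over the 14 mice than any of these, as the plot of island promoters shows.

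The mean level over the 721 tested channel sites was lower in 3 of the 4 DIO-HFD mice than in every other mouse. It was 60, 59.6 and 55.9% in the CON-LFD mice, 61.8, 52.6, 52.5 and 52.7% in the DIO-HFD mice, 60.3, 56.6 and 57.5% in the DIO-LFD mice and 59.7, 59.5, 59.9 and 60.4% in the DIO-VSG mice. DIO-HFD replicate 1 had the highest mean of all 14 mice, so the groups overlapped. The group means were 58.5 ± 2.28 (SD, n = 3) for CON-LFD, 54.9 ± 4.59 (SD, n = 4) for DIO-HFD, 58.2 ± 1.94 (SD, n = 3) for DIO-LFD and 59.9 ± 0.396 (SD, n = 4) for DIO-VSG. Channel genes shared this pattern with the genome, where the DIO-HFD mice had 66.2, 57.2, 57.6 and 57.6% over all tested sites.

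Relative to DIO-HFD mice, the mean over channel sites was 3.6 percentage points higher in CON-LFD, 3.28 in DIO-LFD and 4.99 in DIO-VSG mice, and over all sites 3.33, 3.43 and 4.89. These 3 comparisons share the DIO-HFD mice. Without DIO-HFD replicate 1 the channel differences were 5.93, 5.58 and 7.29 points. Between DIO-VSG and DIO-LFD mice the mean differed by 1.71 points, which is less than the SD of the DIO-LFD mice. Among the site classes, the channel mean differed most between DIO-VSG and DIO-HFD mice in islands outside promoters, by 7.67 points against 3.69 over all genes. Of the 92 channel sites in that class, 18 were in 1 island of Kcnn4 and 20 in 1 of Kcnh2. The means there were 46.9% in DIO-VSG against 29.3% in DIO-HFD mice at Kcnn4, and 83.1% against 67.3% at Kcnh2. The class difference is thus not spread evenly over channel genes. At promoter sites in islands the difference was -0.189 points against 1.12 over all genes.

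**Figure D2:**
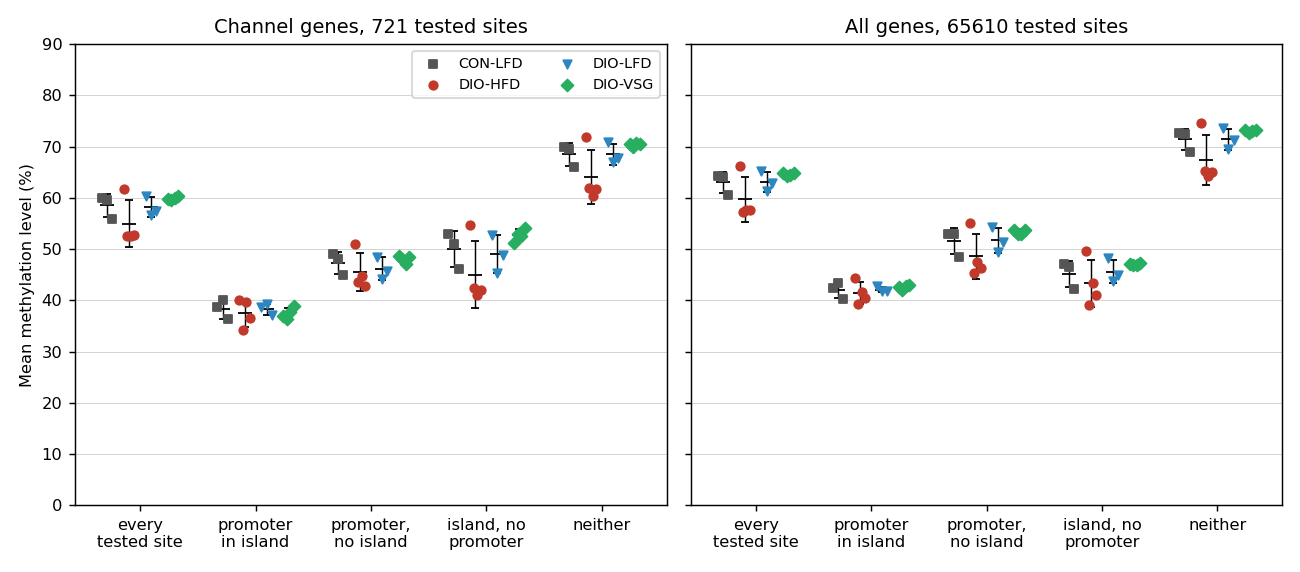
Mean methylation level of each mouse, in percent on the vertical axis, over the tested sites of channel genes and of all genes, for every site and by site class, with 1 point per mouse, bars for the group mean and SD, and the 4 groups side by side. DIO-HFD replicate 1, at 61.8% over channel sites, sits with the other groups, and the other DIO-HFD mice lie at 52.5 to 52.7%.

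No channel site passed a limma adjusted p of 0.05 in any of the 4 comparisons, so counts at an unadjusted p below 0.05 are given beside those over the genome. Neighbouring sites of a gene are not independent, so a count of sites, here and below, is not a count of separate observations. In CON-LFD mice 0 of 721 channel sites passed the adjusted threshold, against a background of 0% of all sites. At the unadjusted threshold 58 channel sites (8.04%) passed, against 7.76% of all sites, with 48 higher (background 6.00%) and 10 lower (background 1.76%). The groups did not overlap at 39 channel sites (5.41%), against 4.68% of all sites. The channel share was thus close to that of the genome. At the level of genes, with the mean over at least 3 tested sites, 0 of 58 channel genes passed the adjusted threshold (background 0%) and 2 (3.45%) the unadjusted one, against 9.77% of 6093 genes.

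In DIO-LFD mice 0 channel sites passed the adjusted threshold, where the background was 0.00305%. A total of 68 (9.43%) passed the unadjusted one, against 10.1%, with 50 higher (background 7.92%) and 18 lower (background 2.16%). At 37 sites (5.13%) the groups did not overlap, against 4.80% of all sites. Of the 58 genes, 0 passed the adjusted threshold (background 0%) and 6 (10.3%) the unadjusted one, against 10.9%.

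In DIO-VSG mice 0 channel sites passed the adjusted threshold, where the background was 0.00305%. A total of 201 channel sites (27.9%) passed the unadjusted one, against 25.0%, with 169 higher (background 20.2%) and 32 lower (background 4.85%). At 64 sites (8.88%) the groups did not overlap, against 7.58%. Among the 58 genes, 0 passed the adjusted threshold (background 0%) and 16 (27.6%) the unadjusted one, against 35.3%. Without Kcnh2, Kcnn4 or Kcnj11, each left out alone, the share of sites was 25.5%, 24.7% and 27.1%.

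Relative to DIO-LFD mice, 28 channel sites (3.88%) passed the unadjusted threshold in DIO-VSG mice, against 3.98% of all sites, with 14 higher (1.94%, background 2.42%) and 14 lower (1.94%, background 1.55%). The adjusted threshold was passed by 0 channel sites, where the background was 0.00305%. The groups did not overlap at 58 sites (8.04%), against 7.74%. Of the 58 genes, 0 passed the adjusted threshold (background 0%) and 3 (5.17%) the unadjusted one, against 2.99%.

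DIO-HFD replicate 1 decided how many sites passed. Without it, 84 channel sites (11.7%) passed the adjusted threshold in CON-LFD mice, 96 (13.3%) in DIO-LFD mice and 270 (37.4%) in DIO-VSG mice, against backgrounds of 12.0%, 14.6% and 34.4%. Of the 58 genes, 17 (29.3%), 20 (34.5%) and 28 (48.3%) then passed, against 31.9%, 32.3% and 52.9%. The median M difference from DIO-HFD over all tested sites was 0.288 in CON-LFD, 0.304 in DIO-LFD and 0.476 in DIO-VSG mice, and over channel sites 0.294, 0.287 and 0.432. Centring each mouse on its median takes out this shift and by itself changes the balance of higher and lower sites over the genome. The centred counts are therefore read only beside those over all sites. In CON-LFD mice 37 channel sites (5.13%) were then higher and 28 (3.88%) lower at the unadjusted threshold, against 4.15% and 3.4% of all sites. In DIO-LFD mice 30 (4.16%) were higher and 41 (5.69%) lower, against 5.53% and 4.43%. In DIO-VSG mice 57 (7.91%) were higher and 86 (11.9%) lower, against 8.64% and 11.4%. For DIO-VSG against DIO-LFD the centred split was 6 higher (0.832%) and 19 lower (2.64%), against 1.75% and 2.9%.

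The 169 higher sites of the DIO-VSG comparison fell in 40 channel genes and the 32 lower sites in 15, with 11 genes holding both. Kcnh2 had 30 higher sites of 50 tested, Kcnn4 had 28 higher and 4 lower of 36, and Kcnn1 had 12 higher and 5 lower of 21. Kcnj11 went the other way, with 8 lower and 1 higher of 13. Islands outside promoters had the largest share of sites past the unadjusted threshold, with 40 of 92 (43.5%) against 26.1% over all genes. Of those 40 sites, 18 were in an exon island of Kcnn4 and 13 in one of Kcnh2. Promoter sites in islands had 15 of 113 (13.3%), against 12.1%.

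Potassium channels activated by calcium or sodium had the largest share of such sites in DIO-VSG mice relative to DIO-HFD mice among the channel families. Of their 99 tested sites in 10 genes, 47 were higher and 10 lower (57.6%), with a median M difference of 0.767. Over all sites the share was 25.0%, with 20.2% higher and 4.85% lower. Without Kcnn4 the share was 39.7% of 63 sites, 19 higher and 6 lower, of which Kcnn1 held 12 and 5. The alpha subunits of voltage-gated potassium channels had 53 higher and 8 lower of 248 (24.6%), and 15.7% of 198 without Kcnh2. Calcium channel alpha1 subunits had 18 higher and 4 lower of 87, their auxiliary subunits 14 and 1 of 75, the sodium channel subunits 16 and 0 of 63, the HCN pacemaker channels 5 and 1 of 38, the potassium channel auxiliary subunits 8 and 0 of 29, and the 2-pore channels 5 and 0 of 28. The inward rectifiers were the one family with more lower than higher sites, 8 against 3 of 54, and all 8 lower sites were in Kcnj11. Without that gene 2 of 41 were higher and 0 lower. With each mouse centred, where 8.64% of all sites were higher and 11.4% lower, the channels activated by calcium or sodium had 23 higher and 13 lower sites and the calcium channel alpha1 subunits 8 and 7. The alpha subunits of voltage-gated potassium channels then had 19 higher and 27 lower, calcium channel auxiliary subunits 3 and 10, sodium channel subunits 2 and 5 and HCN channels 0 and 7. Since centring shifts all sites of a mouse alike, these counts give positions relative to the genome and no direction of their own. Potassium channel auxiliary subunits had 1 and 1, the 2-pore channels 0 and 0, and the inward rectifiers 1 and 16. Among the leading genes, Kcnh2 then had 12 higher and 1 lower site, Kcnn4 had 14 and 4, Kcnn1 had 6 and 6, and Kcnj11 had 0 and 9.

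Kcnj11 encodes Kir6.2, the pore of the ATP-sensitive potassium channel, which closes when a cell has much ATP. The gene lies on the minus strand at chr7:46093953-46100764, and 9 of its sites form a run in its coding sequence, 387 to 647 bp downstream of the annotated transcript start and marked as promoter in the table. That transcript start is inside the gene span. Position 46099612 of the run is 626 bp from it and 1152 bp from the outer 5′ end of the gene. The 4 CpGs at the far end of the run are shown because they hold the channel site with the smallest p in the DIO-VSG comparison, chr7:46099585-46099626, plus strand of GRCm38, with the measured CpGs in capitals. The first of them is within CCGG.

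Kcnj11: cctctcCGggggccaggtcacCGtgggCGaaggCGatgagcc

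At position 46099612, the second capital pair after that CCGG, the level was 60, 84.4, 71.9 and 63.8% in the DIO-HFD mice and 40.9, 37.2, 34.2 and 41.8% in the DIO-VSG mice. It was 56.5, 50.9 and 58.2% in the CON-LFD mice and 38, 53.8 and 53.6% in the DIO-LFD mice. Every DIO-HFD mouse was above every other mouse, and the DIO-VSG mice were the lowest but for 1 DIO-LFD mouse. Relative to DIO-HFD, M differed by -1.93 ± 0.384 (SE) in DIO-VSG mice, with a limma adjusted p of 0.15. The adjusted p was between 0.00233 without DIO-HFD replicate 1 and 0.344 without DIO-HFD replicate 2 over all alternatives.

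Over the 7 sites of the run outside CCGG, the mean was 39.3, 73.1, 58.1 and 52.8% in DIO-HFD, 30.8, 28.9, 29.2 and 32.6% in DIO-VSG, 30.2, 44.6 and 40.1% in DIO-LFD and 45.9, 36.5 and 52.6% in CON-LFD mice. Here DIO-HFD replicate 1 overlapped with the CON-LFD and DIO-LFD mice and stayed above the DIO-VSG mice. All 9 sites had a lower mean in DIO-VSG than in DIO-HFD mice, and 8 passed the unadjusted threshold. In the gene fit M differed by -0.772 ± 0.183 (SE) in DIO-VSG mice (limma, adjusted p = 0.102) and by -0.587 in DIO-LFD mice (adjusted p = 0.446). With each mouse centred these differences were -1.25 and -0.879. A site in the 5′ UTR, 98 bp from the start and singled out after its values were seen, went the other way, with 77.8, 56.2, 50.5 and 55.6% in DIO-HFD and 74.2, 71.7, 77.2 and 73.8% in DIO-VSG mice.

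**Figure D3:**
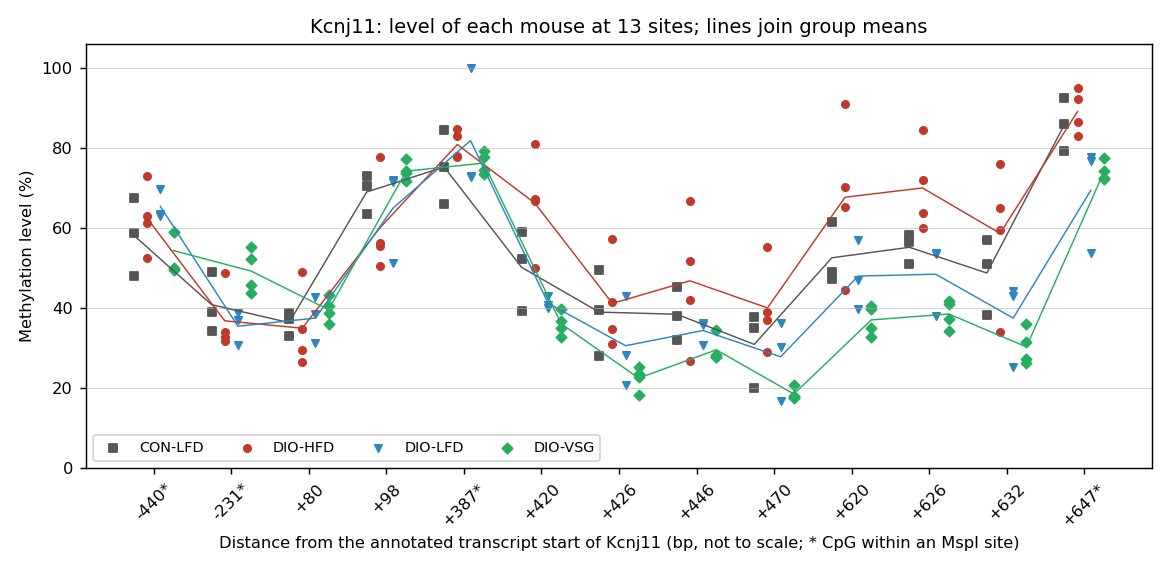
Methylation level of each mouse, in percent on the vertical axis, at the 13 tested sites of Kcnj11 in order of distance from the annotated transcript start in bp, with 1 point per mouse, lines through the group means, and an asterisk at sites within CCGG. From 387 to 647 bp the DIO-HFD mean lies above the DIO-VSG mean at each site, and at 98 bp below it. The transcript start used is inside the gene span.

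Kcnn4 encodes KCa3.1, the calcium-activated potassium channel of lymphocytes and red cells. It lies on the plus strand at chr7:24370263-24386690. A CpG island in its coding sequence held 18 sites, and all 18 passed the unadjusted threshold in DIO-VSG relative to DIO-HFD mice. These sites lie within 169 bp and were read in the same mice, so they do not count as 18 separate results. Its sequence, chr7:24377455-24377630 on the plus strand of GRCm38, is shown because every CpG in it was read and passed that threshold. None of the 18 CpGs, in capitals, is within CCGG.

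Kcnn4: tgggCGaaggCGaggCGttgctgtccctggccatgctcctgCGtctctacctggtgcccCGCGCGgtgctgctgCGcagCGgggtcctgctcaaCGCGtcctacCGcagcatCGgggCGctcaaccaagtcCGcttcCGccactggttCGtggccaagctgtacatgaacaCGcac

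The mean over these 18 sites was 41.6, 22.8, 29.6 and 23.1% in DIO-HFD, 39, 50.5, 47.4 and 50.8% in DIO-VSG, 46.7, 30.7 and 40.8% in DIO-LFD and 46.2, 40.7 and 31% in CON-LFD mice. DIO-HFD replicate 1 was above DIO-VSG replicate 1, so the groups overlapped by 1 mouse. Neighbouring sites in the intron before it gave 44.4, 22.4, 24.9 and 24.1% in DIO-HFD and 44.7, 44.1, 44.4 and 42.8% in DIO-VSG mice. Over the gene M differed by 0.74 ± 0.223 (SE) between DIO-VSG and DIO-HFD mice (limma, adjusted p = 0.102, with a range over the alternatives from 0.00158 without DIO-HFD replicate 1 to 0.256 without DIO-HFD replicate 3). A site just before the gene, at 24370088 and named after its values were seen, went the other way. It had 5.54, 18, 24.6 and 21% in DIO-HFD and 4.39, 5.06, 8.48 and 6.1% in DIO-VSG mice, an M difference of -1.44 ± 0.466 (SE) with a limma adjusted p of 0.15.

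Kcnh2 encodes hERG, the potassium channel that ends the action potential of the heart. It is on the minus strand at chr5:24319589-24351604 and had the most tested sites of the channel genes, 50. A CpG island over an exon held 20 of them and is shown as the stretch with the most sites of this gene, chr5:24325005-24325258, plus strand of GRCm38, with the measured CpGs in capitals. None is within CCGG.

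Kcnh2: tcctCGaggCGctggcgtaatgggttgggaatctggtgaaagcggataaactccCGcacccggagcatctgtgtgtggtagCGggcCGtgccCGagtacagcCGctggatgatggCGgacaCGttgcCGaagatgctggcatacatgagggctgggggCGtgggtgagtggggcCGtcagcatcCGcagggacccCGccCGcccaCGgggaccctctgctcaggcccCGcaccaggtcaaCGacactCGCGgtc

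The mean over this island was 85.6, 64, 52.8 and 66.7% in DIO-HFD, 83.2, 86.1, 80.1 and 83.1% in DIO-VSG, 85.6, 67.6 and 78.1% in DIO-LFD and 83.1, 84 and 77.2% in CON-LFD mice. All 20 sites had a lower mean in DIO-HFD than in DIO-VSG mice, and 13 passed the unadjusted threshold. A run of 12 sites toward the end of the gene, from 24322016 to 24322344, was farther apart, with 73.5, 24.1, 24.8 and 26.4% in DIO-HFD against 64.7, 64.3, 64.6 and 66.2% in DIO-VSG mice. Replicate 1 of DIO-HFD was above every DIO-VSG mouse there, and the other 3 were below every mouse of the other groups. In the gene fit M differed by 0.923 ± 0.328 (SE), with a limma adjusted p of 0.105.

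Kcnn1, which encodes the small-conductance calcium-activated channel SK1, held runs that differed in opposite directions. Both were singled out after their values were seen. In an intron, from 180 bp downstream of a transcript start, 8 sites had a mean of 42.9, 19.7, 20.7 and 20.7% in DIO-HFD and 39, 40, 39.3 and 41.5% in DIO-VSG mice. An island farther upstream, which lies inside the gene Ccdc124, had 44.9, 62.8, 66.3 and 60% in DIO-HFD and 41.1, 38.1, 44.3 and 45.1% in DIO-VSG mice, with 46.9, 50 and 44.6% in DIO-LFD mice. In each run DIO-HFD replicate 1 lay near the other groups and the other 3 DIO-HFD mice lay apart. The island, chr8:70868446-70868594, is printed as the plus strand of GRCm38, with the 6 measured CpGs in capitals.

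Kcnn1: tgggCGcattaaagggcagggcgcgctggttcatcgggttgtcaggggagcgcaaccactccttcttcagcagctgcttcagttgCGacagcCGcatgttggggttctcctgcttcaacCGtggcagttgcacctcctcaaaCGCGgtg

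Kcnh3, which encodes the brain potassium channel Elk2, had a run of 9 coding sites with the same direction as Kcnj11. The mean was 13.5, 36.4, 26.6 and 27.3% in DIO-HFD, 11.4, 17, 17.1 and 17.2% in DIO-VSG, 12.7, 24 and 18% in DIO-LFD and 22.6, 15.7 and 28% in CON-LFD mice. Only 3 of its 9 sites passed the unadjusted threshold, and DIO-HFD replicate 1 lay among the DIO-VSG mice. It is shown as a coding run outside any island, chr15:99233890-99234001, plus strand of GRCm38, with measured CpGs in capitals.

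Kcnh3: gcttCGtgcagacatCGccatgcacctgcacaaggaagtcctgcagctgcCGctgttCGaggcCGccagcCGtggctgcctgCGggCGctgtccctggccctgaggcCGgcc

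Across all channel genes, sites no more than 150 bp apart formed 24 runs of at least 6 sites, with 267 sites in 20 genes. A run of Cacnb1, an auxiliary calcium channel subunit, had lower levels in DIO-HFD replicates 2 to 4 than in all DIO-VSG mice. The values were 74.7, 47.5, 46.6 and 47.6% in DIO-HFD against 73.2, 71.1, 73.8 and 69.9% in DIO-VSG mice. Cacna1i, a T-type calcium channel, had 59.8, 35.3, 45.1 and 41.6% in DIO-HFD and 61.8, 61, 60.8 and 62.1% in DIO-VSG mice. Runs of Kcng4 (30 sites) and Kcns1 (24 sites) held the most sites and differed less. Group means in DIO-HFD and DIO-VSG mice were 57.3% and 60.8% at Kcng4, and 17.3% and 19.9% at Kcns1. At both, and at an Hcn2 run of 12 sites, 0 sites passed the unadjusted threshold in that comparison.

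**Figure D4:**
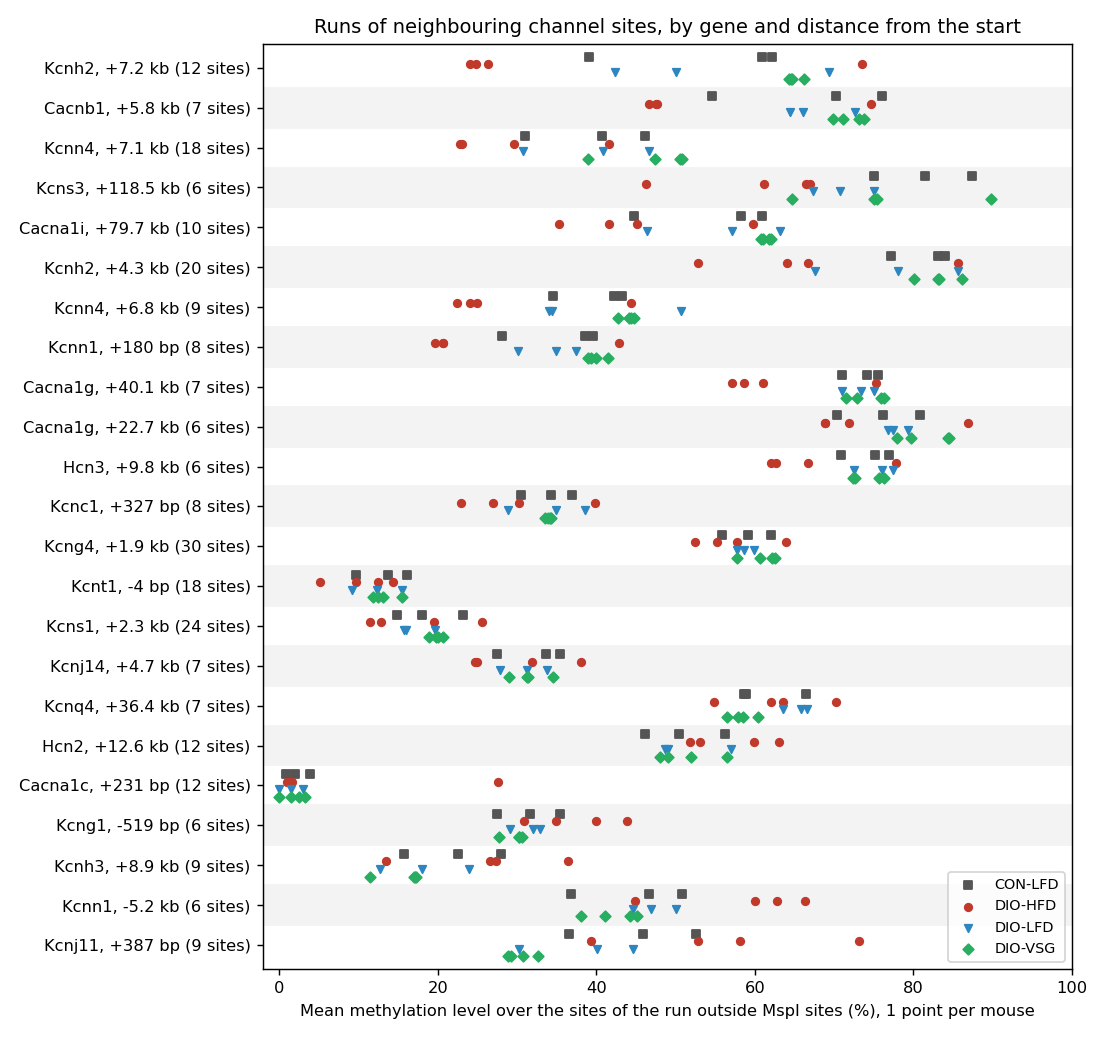
Mean methylation level of each mouse, in percent on the horizontal axis, over the sites outside CCGG of 23 runs of neighbouring channel sites, with 1 point per mouse and rows ordered by the difference between DIO-VSG and DIO-HFD mice. In most upper rows DIO-HFD replicates lie to the left apart from 1 mouse. At Kcns3, DIO-HFD mice at 66.4 and 67% lie above a DIO-VSG mouse at 64.7%. In the bottom row, Kcnj11, DIO-HFD mice lie to the right at 39.3 to 73.1%.

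The channel site with the third smallest p in CON-LFD mice relative to DIO-HFD mice was in a CpG island of Kcnma1, the large-conductance BK channel. It is at position 24004248 of chromosome 14, in a 5′ UTR close to a transcript start, and also inside the noncoding gene 4930519K11Rik. Its surroundings, chr14:24004234-24004263 on the plus strand of GRCm38, are shown because the neighbour 3 bases away, within CCGG, had other values.

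Kcnma1: ccgccgccgcggagCGcCGggaggggggcg

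The level was 32.4, 28.6, 21.8 and 32.4% in DIO-HFD, 60, 43.3 and 55.8% in CON-LFD, 58.5, 41.2 and 60.3% in DIO-LFD and 50, 52.6, 44.1 and 45.2% in DIO-VSG mice. All 4 DIO-HFD mice, replicate 1 included, were below every other mouse. M was higher by 1.47 ± 0.363 (SE) in CON-LFD (limma, adjusted p = 0.611), by 1.48 in DIO-LFD (adjusted p = 0.494) and by 1.18 in DIO-VSG mice (adjusted p = 0.15). The site within CCGG beside it had 67.6, 66.9, 67.2 and 62.8% in DIO-HFD and 61.5, 59.6 and 67.3% in CON-LFD mice. In the gene fit Kcnma1 differed by 0.311 in DIO-LFD mice (limma, adjusted p = 0.446), and by 0.0195 with each mouse centred.

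Other sites among those with the smallest p in CON-LFD mice were far from a promoter. At Kcnn2, the channel SK2, an intron site at position 45439705 of chromosome 18 had 83.5, 88.5 and 84.4% in CON-LFD and 74.4, 63.2, 58.3 and 68.4% in DIO-HFD mice (M difference 1.53, limma adjusted p = 0.611). A site at 11031785 of chromosome 12, over 100 kb downstream of the start of Kcns3 and outside it, had 71.8, 73.7 and 92.2% against 57.6, 33.3, 46.7 and 45.2% (M difference 2.31, limma adjusted p = 0.611). The groups did not overlap at the Kcnn2 and Kcns3 sites. Kcns3, a silent subunit, also led the gene fit, with an M difference of 1.51 ± 0.454 (SE), a limma adjusted p of 0.475, followed by the silent subunit Kcnv1 with 0.689 and the pacemaker channel Hcn3 with 0.483. All 6 sites of Kcns3 lie in the 1 stretch outside the gene.

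In DIO-LFD mice the smallest p belonged to a site within CCGG in the 3′ UTR of Kcnh2, at 24319756. Its levels were 97.1, 100 and 100% in DIO-LFD and 94.1, 89.8, 88.4 and 76.9% in DIO-HFD mice, an M difference of 3.16 ± 0.618 (SE) with a limma adjusted p of 0.437. A level of 100% takes its M from the offset. An intron site of Kcnj4, an inward rectifier of brain and heart, had 23.8, 30.8 and 29.9% in DIO-LFD and 13.5, 14.7, 11 and 7.5% in DIO-HFD mice (M difference 1.53, limma adjusted p = 0.437). An intron site of Kcnn1, within CCGG, had 93.7, 93.8 and 94.9% against 87.8, 89.2, 72.9 and 77.8%. The groups did not overlap at any of these 3 sites. In the gene fit Kcnj15, another inward rectifier, had the smallest p, with gene means of 62, 58.8 and 64.6% in DIO-LFD and 57.2, 51.3, 54.6 and 51.5% in DIO-HFD mice (M difference 0.475, limma adjusted p = 0.446).

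The next 3 sites by p-value, each in another gene, followed Kcnj11 in DIO-VSG mice. A site at 22092416 of chromosome 1 lies over 100 kb upstream of the start of Kcnq5, a subunit of the M-current channel, and outside that gene. This site had 97.4, 98.4, 97.4 and 97.1% in DIO-VSG and 85.7, 80, 88 and 90% in DIO-HFD mice (M difference 2.29, limma adjusted p = 0.15). An intron site of Cacna1g, a T-type calcium channel, had 72.7, 70.8, 72 and 73.6% against 66.1, 42.4, 44.9 and 43% (M difference 1.4, limma adjusted p = 0.15). An intron site of Kcnt1 had 68.4, 63.3, 63.9 and 69.2% against 60.2, 34.9, 39.6 and 42.3% (M difference 1.29, limma adjusted p = 0.15). At all 3 sites every DIO-VSG mouse was above every DIO-HFD mouse. In the gene fit Kcnab2, an auxiliary subunit of Kv1 channels, followed Kcnj11 and Kcnn4 with an M difference of 0.486 (limma, adjusted p = 0.103), which was 0.00391 with each mouse centred.

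At Kcnq5 a promoter-island site within CCGG, chosen after its values were seen, had a wide spread within groups. It is in coding sequence 43 bp from the start and also inside the gene Gm26580. The level was 84.8, 55.7, 36.1 and 60.6% in DIO-HFD, 5.33, 4.65, 8.16 and 13.3% in DIO-VSG, 7.5, 62 and 3.8% in DIO-LFD and 10, 69.1 and 9.21% in CON-LFD mice. A CON-LFD and a DIO-LFD mouse lay among the DIO-HFD mice, and the other mice of those groups lay with DIO-VSG. The M difference between DIO-VSG and DIO-HFD mice was -4.12 ± 1.15 (SE), with a limma adjusted p of 0.15. Its surroundings are chr1:21961520-21961559, plus strand of GRCm38, with the measured CpG in capitals.

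Kcnq5: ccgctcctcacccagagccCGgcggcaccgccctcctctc

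Between DIO-VSG and DIO-LFD mice the smallest p was again in Kcnma1, at 24002697. That site, in the 3′ UTR of a transcript, had 64.6, 48.8, 64.3 and 64.5% in DIO-VSG and 95.7, 72.4 and 77.8% in DIO-LFD mice (M difference -1.82, limma adjusted p = 0.945). An intron site of Kcnj6, a G protein-gated inward rectifier, had 78.9, 80.3, 83.5 and 83.2% against 62.5, 73 and 75%. A site of Cacng7, a calcium channel gamma subunit, had 14, 16.4, 15.2 and 15.4% against 6.98, 10.2 and 6.38%. In the gene fit Kcnj15 differed by -0.4 in M (limma, adjusted p = 0.957), Hcn4 differed by 0.489 and Kcnma1 by -0.256, both with an adjusted p of 0.957.

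The gene fit over 58 channel genes put their median M difference in DIO-VSG relative to DIO-HFD mice at 0.224, against 0.359 over all genes. Genes at the high end were Kcns3 with 1.15, Cacnb1 with 0.946 and Kcnh2 with 0.923. Besides Kcnj11, the gene lower in DIO-VSG mice at the unadjusted threshold was Scn2b, a sodium channel beta subunit, with -0.376 (limma, adjusted p = 0.123). Its gene means were 40.5, 40.5, 44.1 and 39.1% in DIO-VSG and 42.5, 50.4, 47.3 and 50.1% in DIO-HFD mice, which overlapped. With the mice centred, 3 of the 58 genes (5.17%) were higher and 20 (34.5%) lower at the unadjusted threshold, against 7.16% and 21.2% of all genes.

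**Figure D5:**
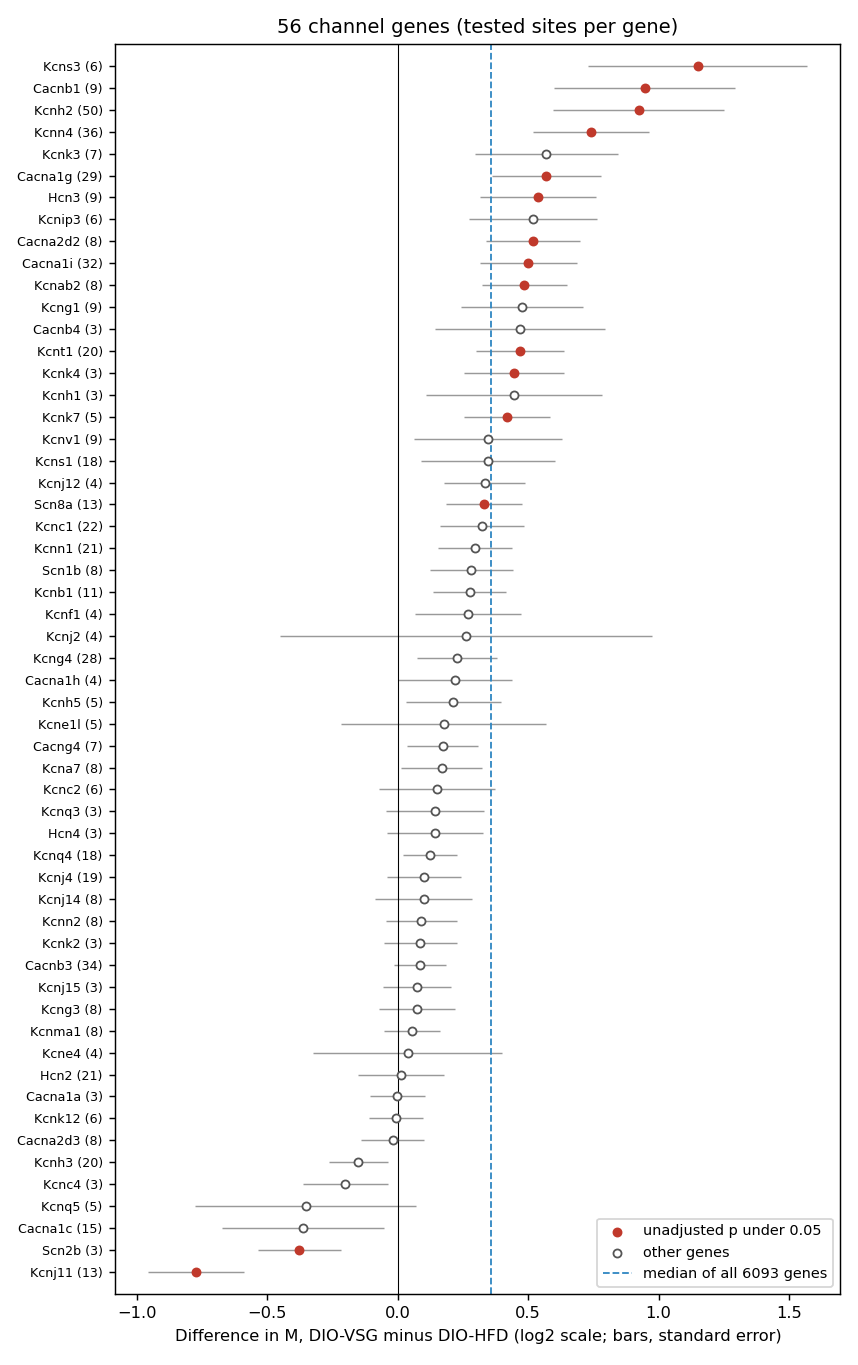
Difference in M between DIO-VSG and DIO-HFD mice, on a log2 scale on the horizontal axis, for 56 channel genes with at least 3 tested sites, with the standard error as bars and the number of tested sites after each symbol. Filled points passed an unadjusted p of 0.05, none passed after adjustment, and the dashed line is the median of 6093 genes at 0.359, with Kcnj11 lowest at -0.772.

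Channels known for roles in fat, lymphocytes, vessels, heart or breast cells spanned the whole scale of methylation. A list of 23 such genes had sites for 20. Kcna3, the Kv1.3 channel of T cells, had 1 site, within CCGG in a 5′ UTR in its promoter island. It had 100, 68.8, 80 and 83.7% in DIO-HFD, 47.4, 40.9, 20 and 53.3% in DIO-VSG, 28.1, 85.7 and 37.5% in DIO-LFD and 54.5, 83.7 and 44.4% in CON-LFD mice. The DIO-HFD and DIO-VSG mice did not overlap, while 1 mouse of each other group lay with DIO-HFD. The mean over 14 mice was 93.6% at the 1 site of Kcna5, 95.4% over 4 sites of Kcnj2 and 86.7% over 3 of Kcnh1. These are potassium channels of vessels, heart and brain, and none of their sites was an island promoter. Kcnk3, a 2-pore channel, had 77.3% over 8 sites. Among calcium channels the mean was 71.3% for Cacna1g (32 sites), 69.5% for Cacna1h (5 sites) and 61.3% for Cacna1a (3 sites). It was 30.0% for Cacna1d (2 sites) and 13.7% for the single site of Cacna2d1. For the pacemaker channels Hcn2 and Hcn4 it was 63.7% over 21 sites and 46.3% over 4. These means depend on which sites were read. Scn8a, a sodium channel of nerve, had 47.4% over 17 sites and Kcnip3, an auxiliary subunit of Kv4 channels, 40.1% over 8. The gene mean of Cacnb3, an auxiliary calcium channel subunit, over its 34 tested sites stayed between 55.7 and 59.9% in all 14 mice.

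Genes that work with these channels, such as anchoring proteins, junctophilins and calcium sensors, were counted in the same way. Of 53 listed genes 38 had a site, with 210 tested sites in all. At the unadjusted threshold 17 (8.1%) passed in CON-LFD, 23 (11%) in DIO-LFD and 49 (23.3%) in DIO-VSG mice relative to DIO-HFD, near the 7.76%, 10.1% and 25.0% of all sites. The last were 41 higher and 8 lower, and 0 passed after adjustment. Abcc8, which encodes the sulfonylurea receptor that pairs with the Kcnj11 product in pancreatic beta cells, had no site. Amigo1, which accompanies Kv2 channels, had an M difference of -0.931 between DIO-VSG and DIO-HFD mice, and Cntnap2, which clusters Kv1 channels at nerve fibres, one of 0.672, both with an adjusted p of 0.102.

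Markers of the cells in the pad could be read at few promoters. Of 8 adipocyte genes 3 had promoter sites, at 2.9% for Pparg, 48.1% for Lipe and 58.7% for Cebpa. The epithelial genes Cdh1 and Krt5 had 6.64% and 78.9%, the lymphocyte genes Lat and Zap70 46.1% and 63.6%, the neuronal gene Rbfox3 28.1%, and the muscle genes Ckm, Des and Myod1 65.7%, 31.1% and 39.4%. These levels do not settle which cells were present, and their part in the channel levels was not tested.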

How the data were processed

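RRBS was measured in the contralateral mammary fat pad of 14 mice in 4 groups, taken from the sample labels. Per the labels and the study's methods, the authors digested DNA with MspI, kept fragments of 40 to 170 bp, aligned the reads to mm10 with Bismark, called methylation with methylKit, and dropped the libraries of 1 CON-LFD and 1 DIO-LFD mouse as poor in quality. They deposited the methylation level as a fraction from 0 to 1 at each site, with flags for promoter, exon, intron and CpG island, and without read counts, so the depth is unknown and the methylation levels carry no interval.

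Levels were turned into M = log2((level + 0.01)/(1 − level + 0.01)) where the standard deviation across mice reached 0.05. A single limma 3.58.1 model (R 4.3.3, lmFit, contrasts.fit, eBayes) held all 4 groups, with Benjamini-Hochberg adjustment over all tested sites. The gene fit used M of the mean level over the tested sites of a gene, for genes with at least 3 such sites. The fits were also run on simulated M values, drawn independently for each site and mouse. Those held no shift of whole mice and no link between neighbouring sites, so they do not test the fits for either. Comparisons were of the 3 other groups with DIO-HFD, and of DIO-VSG with DIO-LFD. Labels pair no mice. Deviations of mice with the same replicate number had a median correlation of 0.0568, against -0.0218 for other pairs.

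Sites were placed with GENCODE M21 on GRCm38, and sequences were read with samtools 1.23.1 and pysam 0.24.0 in Python 3.11.15 (NumPy 2.4.6, pandas 2.3.3, Matplotlib 3.10.9). Runs were sites of 1 gene at most 150 bp apart, 6 or more in a row, and their means leave out sites within CCGG. The members and lists were chosen with earlier results of these data known. The rule for members leaves out 15 sites of 2 genes. Named were, per comparison, the 4 sites, at most 1 per gene, and the 3 genes with the smallest p, the 5 genes with the most sites, the 3 genes with the highest and the 3 with the lowest island promoters, and 23 genes with known roles in fat, lymphocytes, vessels, heart or breast cells. Other sites and runs, and Scn2b, Cacnb1, Kcnn1, Kcnh3 and the partner genes singled out, were named after their values were seen. Some results that these rules select are not reported here.

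The following alternatives were run: the replicate number as a block, a larger offset (0.1), fits on the level itself, the trend and robust options of eBayes, fits of only 2 groups, centring of each mouse, no variability filter, and the omission of 1 mouse at a time. An analysis of only the sites outside CCGG was chosen after seeing the data.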

Additional observations from a re-analysis of the deposited data

Results flagged for a closer look

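Each value below is from a mouse whose gap to its nearest group member, divided by the range of its group of 4, exceeded 0.829. Of 80 groups examined 8 did so, and chance gives about 1 in 20. No difference between effects was found that met the other criteria. Over the channel sites tested, DIO-HFD replicate 1 had a mean of 61.8% against 52.5 to 52.7% in the other DIO-HFD mice (ratio 0.982).

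The same mouse was apart for the gene means of Cacna1g (76.3% against 60.4 to 60.8%, ratio 0.974), Cacna1h (77.6% against 62.1 to 63%, ratio 0.941) and Cacna2d3 (54.9% against 51.5 to 51.9%, ratio 0.874), and at the Cacna1g site 94441961 (66.1% against 42.4 to 44.9%, ratio 0.895). Cacna1c, the L-type calcium channel pore, was apart in another mouse, DIO-HFD replicate 3, with a gene mean of 30.3% against 11.3 to 12.3% (ratio 0.95).

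Among DIO-VSG mice, replicate 2 was low at the Kcnma1 site 24002697, with 48.8% against 64.3 to 64.6% (ratio 0.981), and high for the gene mean of Cacna1a, with 63.9% against 60 to 60.7% (ratio 0.829).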

How the results depend on the processing

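Leaving out each mouse in turn moved the counts most. The number of channel sites past the adjusted threshold ranged from 0 to 84 in CON-LFD, 0 to 96 in DIO-LFD and 0 to 270 in DIO-VSG mice relative to DIO-HFD, and was 0 to 0 for DIO-VSG against DIO-LFD, and channel genes ranged from 0 to 17, 0 to 20 and 0 to 28. All of the highest values were those without DIO-HFD replicate 1. At the unadjusted threshold the sites ranged from 24 to 231, 39 to 264 and 110 to 346, and from 18 to 43 for DIO-VSG against DIO-LFD, and the genes from 1 to 23, 1 to 27, 6 to 31 and 1 to 4. The site counts were over 1.5 times lower without DIO-HFD replicate 2, 3 or 4, with 31, 32 and 29 in CON-LFD, 39, 41 and 40 in DIO-LFD and 110, 114 and 112 in DIO-VSG mice. They were 24, 32 and 91 in the CON-LFD comparison without CON-LFD replicate 1, 2 or 3, 44 in the DIO-LFD comparison without DIO-LFD replicate 1, and 43 and 18 between DIO-VSG and DIO-LFD without DIO-LFD replicate 1 or DIO-VSG replicate 1. The mean difference over channel sites ranged from 2.84 to 5.93, 2.19 to 5.58, 4.2 to 7.29 and 0.945 to 2.8 percentage points.

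With each mouse centred on its median the mean differences became -1.11, -1.5, -2.7 and -1.2. Centring shifts all sites of a mouse alike, so these values give positions relative to that median and no direction of their own. The centred mean over all sites is not given. A fit of only the 2 groups compared gave 25 channel sites in CON-LFD and 28 sites and 3 genes in DIO-LFD mice at the unadjusted threshold. Sites outside CCGG gave 4 genes in CON-LFD mice, and 12 sites and 1 gene between DIO-VSG and DIO-LFD mice, with fewer sites tested. Of 610 values for named sites and genes under the alternatives, 589 kept their direction and side of the adjusted threshold, 21 passed it, all without DIO-HFD replicate 1, and 0 reversed. With the replicate block the unadjusted counts were 55, 57, 215 and 26 sites and 2, 6, 19 and 3 genes, with 0 past the adjusted threshold, and the mean differences 3.35, 3.0, 4.99 and 1.99. By the labels, the numbers name mice and pair none. Deviations of same-number mice had correlations from -0.251 to 0.421, and those of other pairs from -0.532 to 0.414. The correlation was over 0.1 in 6 of 19 same-number pairs and in 7 of 54 others. Depth could not be weighed, because the levels came without read counts.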
